A study of Mus musculus with 31 samples.

Results

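The 7 genes Cst9, Aard, Mro, Tesc, Vnn1, Dmrt1 and Clu, used as markers of Sertoli cells, were followed through fetal mouse gonads that lacked Sox9, Ctnnb1 or both. They were chosen by name, with earlier results of these data known. Counts of members called are therefore descriptions and no independent test. Each gene was read from probe sets that the platform annotation gives to it alone. Where a gene had several, the brightest over all 31 arrays was used. All 7 passed the filter on low signal, among 11777 genes tested of 18193 named. The question was which of them return in XY gonads that have lost both factors, and which do not.

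The gonads came from embryonic day 14.5, and each array held RNA of a single pair, a separate biological replicate per the labels. All embryos carried the Sf1-cre transgene, which is active in gonadal somatic cells, and at least 1 floxed allele each of Ctnnb1 and Sox9. The controls (Ctr) carried the transgene and 1 floxed allele of both genes, and so were not wild type. In Ctnnb1KO gonads both Ctnnb1 alleles were floxed, in Sox9KO gonads both Sox9 alleles, and in the double knockout (DKO) both alleles of both genes. XX and XY gonads of these 4 genotypes gave 8 groups, with 4 arrays each and 3 in XY DKO. Cells in which the transgene is not active, such as germ cells, keep intact alleles.

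In the fetal testis SRY switches on Sox9, and the transcription factor SOX9 drives supporting cells to become Sertoli cells, which enclose germ cells in cords. In the fetal ovary WNT signals act through beta-catenin, the product of Ctnnb1, and supporting cells become pregranulosa cells. Sertoli cell markers are genes that the first of these cell types transcribes more strongly than the second.

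Upstream sequence was available for 2 of the 7 members, Cst9 and Tesc. Availability alone set this choice. These genes also had the largest differences between the control gonads and parted in XY DKO. The stretches are the 250 bases before the RefSeq start of each gene on the plus strand of GRCm38.p6, at chr2:148834897-148835146 for Cst9 and chr5:118027493-118027742 for Tesc. Capitals mark the 1 motif match found.
Cst9: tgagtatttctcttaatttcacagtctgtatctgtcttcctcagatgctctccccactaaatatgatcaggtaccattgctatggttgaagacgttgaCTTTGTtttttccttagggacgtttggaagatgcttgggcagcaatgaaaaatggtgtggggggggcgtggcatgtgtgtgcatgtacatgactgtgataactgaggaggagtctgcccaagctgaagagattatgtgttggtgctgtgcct
Tesc: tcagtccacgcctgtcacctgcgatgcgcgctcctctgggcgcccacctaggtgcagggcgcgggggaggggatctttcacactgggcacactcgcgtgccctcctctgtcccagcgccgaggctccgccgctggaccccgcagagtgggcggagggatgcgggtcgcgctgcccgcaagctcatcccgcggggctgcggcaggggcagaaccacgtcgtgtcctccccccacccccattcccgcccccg
The motifs searched on both strands were AACAAT for SOX factors, CTTTGA for TCF/LEF factors, AAGGTCA for SF1, AGATAA for GATA factors and ACAAAG, which can serve SOX or TCF/LEF factors and can share bases with the first and second. ACAAAG was added after the Cst9 sequence had been read. It matched once in Cst9, on the minus strand from -152 to -147 relative to the start, and 16.5% of 32851 upstream stretches of that length hold it. The other 4 motifs, held by 9.42%, 13.8%, 4.08% and 9.99% of those stretches in the same order, matched in neither gene. Variant forms of the motifs were not searched. The Cst9 stretch holds TGATAA, which differs from AGATAA in its first base only. G and C made up 45.6% of the Cst9 stretch and 73.2% of the Tesc stretch, against a median of 52.4% over those 32851 stretches. A match is a description of the letters and no evidence of binding.

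Signals are MAS5 intensities on a linear scale, and differences are on the scale of log2(signal + 16), with the SE from limma. The median signal per array ran from 120.6 to 168.8, so a member near or below that range was dim. Arrays have no read depth, and their number limits the precision. Sox9 signal was 839.7 to 1025 in XY Ctr, 7.10 to 41.7 in XY Sox9KO and 8.60 to 34.9 in XY DKO. Ctnnb1 signal from its brightest probe set did not separate the genotypes. Another of its probe sets read 1247 to 1378 in XY DKO and 1470 or more in every other group, XX DKO included. Where the Ctnnb1 probe sets lie relative to the deleted part is unknown, so Ctnnb1 signal checks no label. Replicate 4 of XX Ctnnb1KO stood apart: its Xist signal was 51.1, against 7886 or more in the other XX Ctnnb1KO arrays, and its Eif2s3y signal was 29.6, against 2516 or more in XY Ctnnb1KO. Levels of Vnn1 and Cst9, differences, steps in the order of levels and macrophage counts that use that group are also given without it, which was chosen after the values had been seen.

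**Figure D1:**
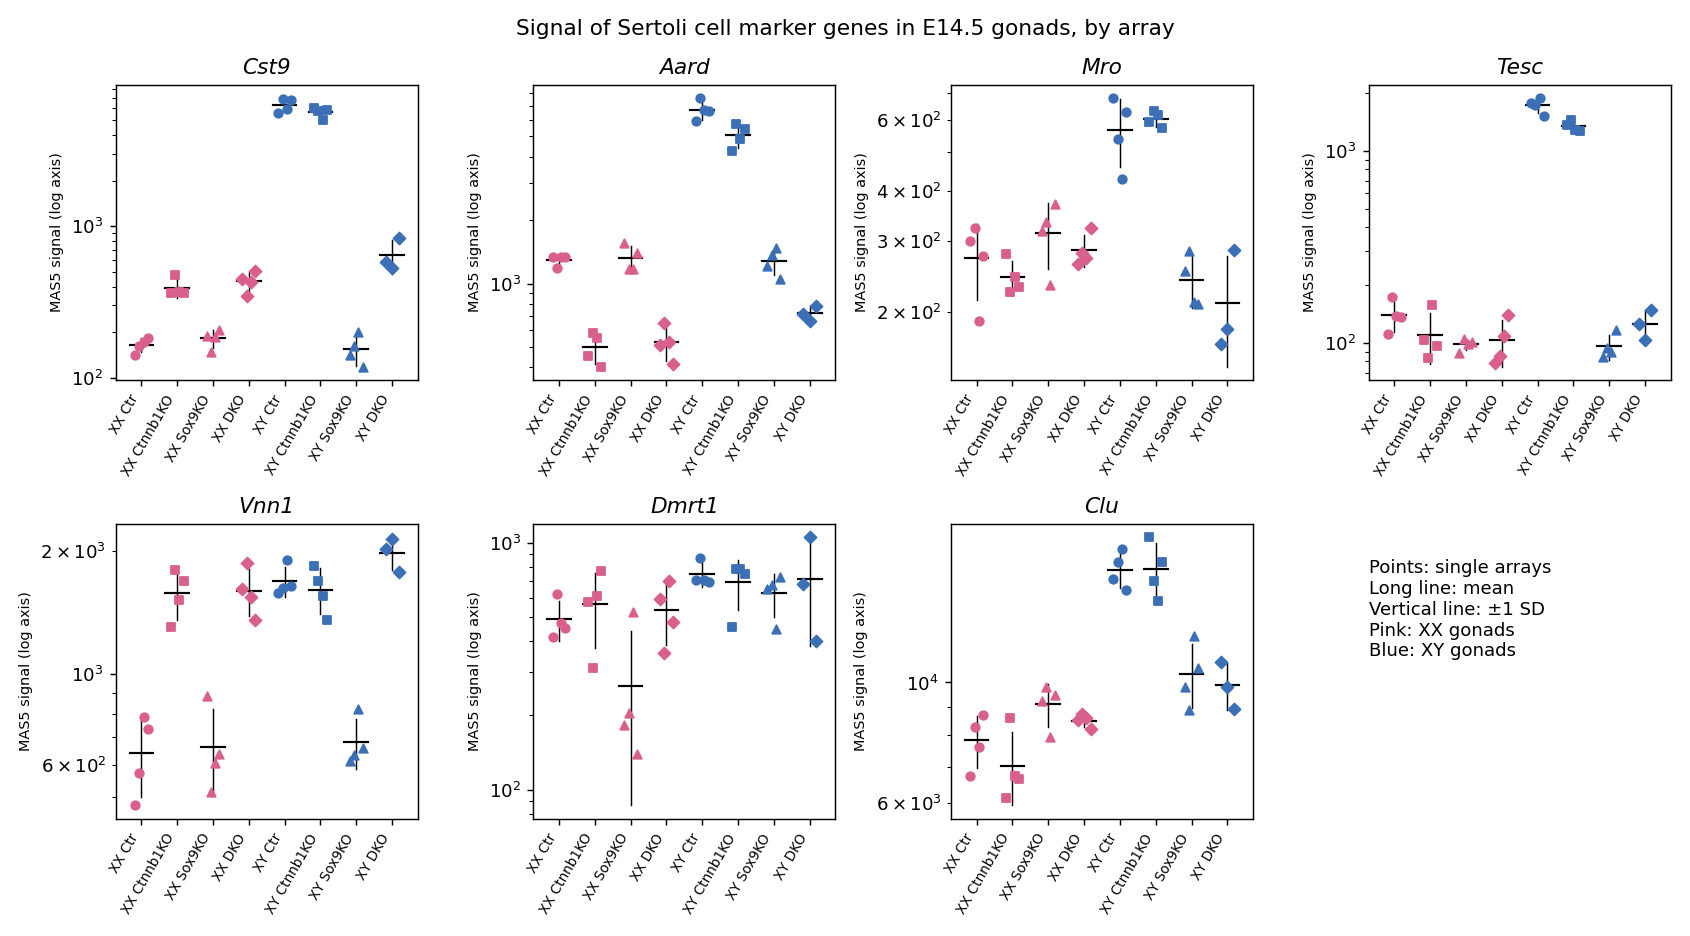
Signal of the 7 marker genes on a log axis, 1 panel per gene, with the 8 groups along the x axis; points are single arrays, long lines the group means and vertical lines 1 SD (n = 4, XY DKO n = 3). Vnn1 in XY DKO, at 1781 to 2142, lies with or above the control testis, Cst9 lies in between, and Aard in XY DKO lies below XY Sox9KO.

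In the control testis 6 members were higher than in the control ovary and 0 were lower, where limma called 18% of all genes higher (adjusted p under 0.05, Benjamini-Hochberg). The median difference of the members was 1.39, against -0.02 over all genes tested. Cst9, of the cystatin family of protease inhibitors, read 5597, 6907, 5913 and 6843 in XY Ctr and 142, 162, 172 and 182 in XX Ctr. The difference was 5.13 ± 0.14 log2 units (limma adjusted p = 1.41e-22, 4 against 4 arrays). Tesc, encoding the calcium-binding protein tescalcin, read 1517 to 1876 against 111 to 173, and differed by 3.49 ± 0.16. Aard, a gene named for its alanine- and arginine-rich domain, differed by 2.35 ± 0.13. Its signal in the control ovary, 1185 to 1339, was still well above the array medians. Vnn1, encoding the pantetheinase vanin 1, Clu, encoding the secreted chaperone clusterin, and Mro, encoding maestro, differed by 1.39 ± 0.15, 1.04 ± 0.10 and 1.03 ± 0.16.

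Dmrt1 was the member not called. It encodes a DM-domain transcription factor made by both Sertoli cells and germ cells. Signals of 706, 867, 710.1 and 695 in XY Ctr and of 417, 622, 472 and 453 in XX Ctr did not overlap, as for 34.3% of all genes. The difference of 0.59 ± 0.30 log2 units missed the threshold (limma adjusted p = 0.118). Fitted on the arrays of both groups alone, it was called (limma adjusted p = 0.00321).

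The same 6 members were lower in XY Sox9KO than in XY Ctr, where limma called 16% of all genes lower. Cst9 fell by 5.22 ± 0.14 log2 units, to 141, 162, 202 and 119 (SE, 4 against 4 arrays). Tesc fell by 3.96 ± 0.16, to 84.2, 94.0, 89.4 and 116. Both were then close to the array medians or below them. Aard fell by 2.38 ± 0.13, Vnn1 by 1.29 ± 0.15, Mro by 1.18 ± 0.16 and Clu by 0.64 ± 0.10. In all 6 the arrays of the groups did not overlap, as for 35.3% of all genes. Dmrt1 differed by -0.26 ± 0.30 (limma adjusted p = 0.516). Between XY Sox9KO and the control ovary limma called 0 of the 7, and 0.628% of all genes (74 genes, with 2136 at an unadjusted p below 0.05). Clu came nearest, at 0.40 ± 0.10 (limma adjusted p = 0.0545). It was called when XX Ctr replicate 4 or XY Sox9KO replicate 2 was left out (limma adjusted p = 0.0341 and 0.0261).

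Between XY Sox9KO and XY DKO, 2 of the 7 members rose, 1 fell further and 4 did not pass the test. Over all genes limma called 11.1% higher and 10.8% lower in XY DKO. Against XY Ctr, 5 members were lower in XY DKO and 0 were higher, where limma called 7.61% of all genes lower. In those 5 the arrays did not overlap, as for 25.5% of all genes. The comparisons share the XY DKO arrays. These counts held under each alternative setting run and with each array left out in turn.

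Vnn1 rose into or above the range of the control testis. Its signal was 612, 634, 822 and 658 in XY Sox9KO and 2022, 2142 and 1781 in XY DKO, while XY Ctr read 1584, 1621, 1903 and 1639.8. Every XY DKO array lay above every XY Sox9KO array, and the range overlapped that of the control testis. The rise was 1.52 ± 0.16 log2 units (limma adjusted p = 1.40e-08, 3 against 4 arrays). Against XY Ctr the difference was 0.23 ± 0.16 (limma adjusted p = 0.359), and the XY DKO mean was the highest of the 8 groups.

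Cst9 returned in part. It read 578, 531 and 833 in XY DKO, against 119 to 202 in XY Sox9KO and 5597 to 6907 in XY Ctr, with no overlap on either side. The rise over XY Sox9KO was 1.94 ± 0.15 log2 units (limma adjusted p = 6.15e-11, 3 against 4 arrays). The remaining difference from XY Ctr was -3.28 ± 0.15 (limma adjusted p = 4.73e-16).

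Aard went the other way. Its signals of 714, 666 and 784 in XY DKO lay below the 1218, 1361, 1473 and 1053 of XY Sox9KO and the 1185 to 1339 of XX Ctr. It fell by 0.80 ± 0.14 log2 units from XY Sox9KO (limma adjusted p = 5.89e-05). Its difference from the control ovary was -0.83 ± 0.14 (limma adjusted p = 3.13e-05), and from XY Ctr -3.18 ± 0.14.

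Tesc, Mro and Clu did not pass the test against XY Sox9KO. Tesc read 125, 103 and 149 in XY DKO against 84.2 to 116, a difference of 0.33 ± 0.17 log2 units (limma adjusted p = 0.170), and lay below XY Ctr with a difference of -3.63 ± 0.17. Mro, whose product carries HEAT-like repeats, read 166, 182 and 285 against 209 to 283. It differed by -0.20 ± 0.18 (limma adjusted p = 0.458) and from XY Ctr by -1.38 ± 0.18. Clu read 10886, 9829 and 8935 against 8889 to 12158, a difference of -0.06 ± 0.11 (limma adjusted p = 0.723), and differed from XY Ctr by -0.71 ± 0.11. For these 3 genes the XY DKO arrays overlapped those of XY Sox9KO and not those of XY Ctr.

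Dmrt1, not called as lower in XY Sox9KO, was called in neither comparison. It read 679, 1055 and 400.3 in XY DKO, where its coefficient of variation of 46.2% was the highest of the 7 members. It differed from XY Sox9KO by 0.10 ± 0.32 log2 units and from XY Ctr by -0.16 ± 0.32 (limma adjusted p = 0.862 and 0.784). The summed signal of 7 germ cell genes in the same 3 arrays was 19710.0, 23683 and 10402. The array with the least germ cell signal thus also had the least Dmrt1, and the array with the most had the most. Both extremes also matched in XX Ctnnb1KO and XY Sox9KO, and in the other groups they did not both match. In XY Ctr the highest sum, 17419, was in replicate 3 and the highest Dmrt1, 867, in replicate 2. In XX DKO the lowest Dmrt1, 359, was in replicate 2, with a sum of 19763, and the lowest sum, 17114, in replicate 4. The part of germ cells in the Dmrt1 values was not tested. In whole gonads fewer cells of a type and less RNA per cell cannot be told apart, for any of the 7 members.

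**Figure D2:**
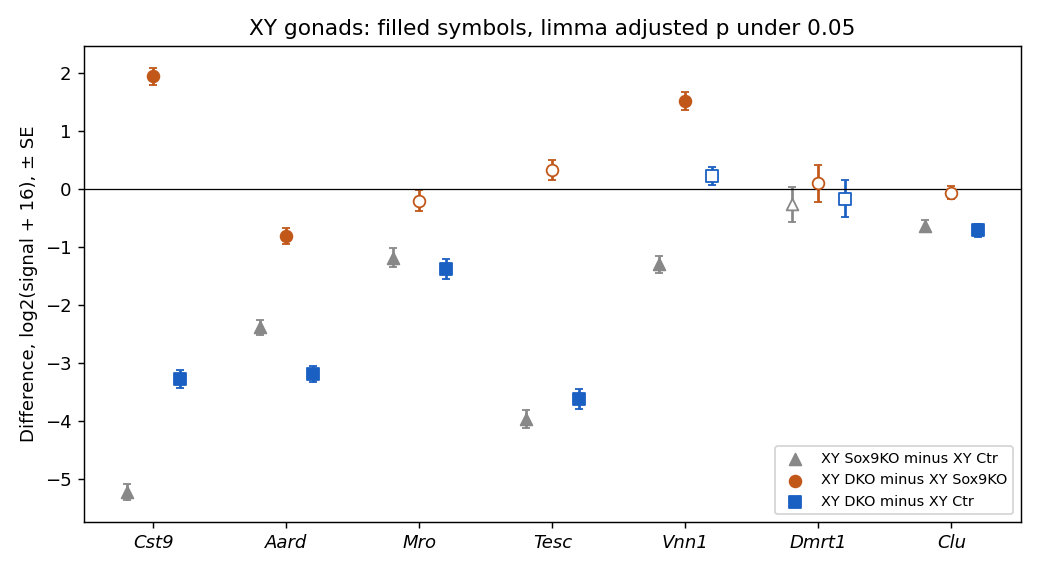
Differences of log2(signal + 16) with their SE in XY gonads for the 7 members: XY Sox9KO against XY Ctr, XY DKO against XY Sox9KO, and XY DKO against XY Ctr, with filled symbols for a limma adjusted p under 0.05. Vnn1 has a filled rise of 1.52 and an open symbol against XY Ctr, Cst9 has filled symbols on both sides of 0, and Aard falls in all 3 comparisons.

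The 3 XY DKO arrays were also placed between the mean of XY Sox9KO, set to 0%, and that of XY Ctr, set to 100%, on the log2 scale. Vnn1 averaged 118% (106% to 127%, SD 10.4) and Cst9 37.2% (32.4% to 44.6%, SD 6.46). Aard lay at -33.6% (-38.2% to -28.6%, SD 4.85), outside the interval on the far side of XY Sox9KO. Tesc lay at 8.45% (SD 5.97), Clu at -10.1% (SD 22.2) and Mro at -16.8% (SD 32.9). The arrays of Clu and Mro spread to both sides of 0%. On linear signal Cst9 had regained only 7.98% of the difference and Vnn1 129%. Dmrt1 was left out because its difference between XY Sox9KO and XY Ctr was not called. These shares describe the 3 arrays and carry no test.

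**Figure D3:**
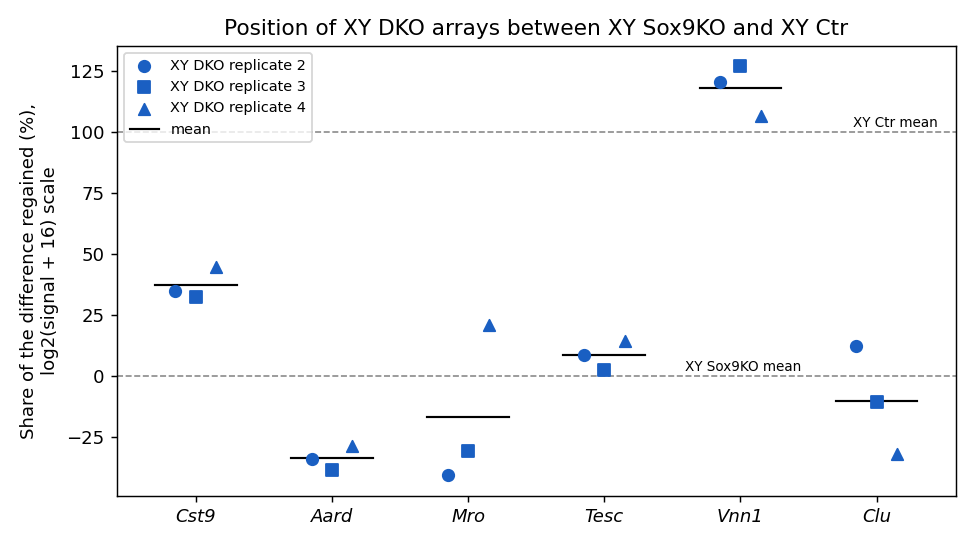
Position of the 3 XY DKO arrays between the means of XY Sox9KO (0%) and XY Ctr (100%) for the 6 members called lower in XY Sox9KO; points are arrays and lines their means. Vnn1 lies between 106% and 127%, Cst9 between 32.4% and 44.6% and Aard between -38.2% and -28.6%.

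With Sox9 in place, none of the members passed the test on loss of Ctnnb1 in XY gonads. In XY Ctnnb1KO limma called 0 of the 7 against XY Ctr, and 0.0679% of all genes (8 genes, with 473 at an unadjusted p below 0.05). Aard read 4250.2, 5732, 4861 and 5411, against 5917 to 7573 in XY Ctr, a difference of -0.40 ± 0.13 log2 units (limma adjusted p = 0.895). Tesc read 1268 to 1442 against 1517 to 1876, a difference of -0.36 ± 0.16. For these 2 members the arrays did not overlap between the groups, as for 3.5% of all genes. Cst9, Mro, Vnn1, Dmrt1 and Clu overlapped, with differences between -0.15 and 0.11.

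For Cst9 and Vnn1 the effect of Ctnnb1 loss in XY gonads differed between gonads with and without Sox9, by the test of the difference itself. The interaction was 2.10 ± 0.21 log2 units for Cst9 and 1.59 ± 0.22 for Vnn1 (limma adjusted p = 2.43e-08 and 4.93e-06). These were 2 of the 7 members, where limma called 5.27% of all genes in that direction. Tesc followed at 0.69 ± 0.23 (limma adjusted p = 0.0595), and was called under 4 alternative settings and without XY Sox9KO replicate 4 or XY DKO replicate 3 (limma adjusted p = 0.0155 to 0.0489). For Aard the interaction was -0.40 ± 0.19 and missed the threshold (limma adjusted p = 0.201).

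Cst9, Vnn1 and Aard were also the members called in XX Ctnnb1KO gonads, where Sox9 is low in the XX controls as well. In XX Ctnnb1KO 2 of the 7 members were higher and 1 was lower than in XX Ctr, where limma called 4.81% of all genes higher and 5.32% lower. Vnn1 rose from 478, 572, 787 and 734 to 1303, 1804, 1515 and 1692, by 1.29 ± 0.15 log2 units (limma adjusted p = 1.36e-07, 4 against 4 arrays). Cst9 rose from the range 142 to 182 to the range 362 to 477, by 1.17 ± 0.14 (limma adjusted p = 4.03e-07). Aard, in contrast, read 404 to 582 against 1185 to 1339 in XX Ctr and fell by 1.37 ± 0.13 (limma adjusted p = 2.96e-09). None of these arrays overlapped, as for 13% of all genes. Without replicate 4 of XX Ctnnb1KO the differences were 1.25 for Vnn1, 1.21 for Cst9 and -1.27 for Aard, and limma again called 2 members higher and 1 lower.

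Vnn1 in XX Ctnnb1KO and XX DKO, at 1578 ± 219 and 1597 ± 212 (SD, n = 4 each), lay beside the control testis at 1687 ± 146 (SD, n = 4). Cst9, at 392 ± 56.4 and 434 ± 66.5, stayed far below its testis level of 6315 ± 659.9 (SD, n = 4 each). XX DKO against XX Ctr again had 2 members higher and 1 lower (7.29% and 5.61% of all genes), with Vnn1 at 1.31 ± 0.15, Cst9 at 1.31 ± 0.14 and Aard at -1.29 ± 0.13 log2 units. Between XX DKO and XX Ctnnb1KO limma called 0 members and 0% of all genes, with 965 genes at an unadjusted p below 0.05. Without replicate 4 of XX Ctnnb1KO Vnn1 averaged 1541 ± 252 and Cst9 402 ± 64.9 in that group (SD, n = 3), and limma again called 0 members and 0 genes between XX DKO and XX Ctnnb1KO. The largest difference among the members with all arrays was that of Clu, 0.29 ± 0.10 (limma adjusted p = 0.458).

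Between XX Sox9KO and XX Ctr limma called 0 members and 0% of all genes, with 537 at an unadjusted p below 0.05. Dmrt1 read 183, 204, 522 and 139 in XX Sox9KO, its lowest mean of the 8 groups, against 417 to 622 in XX Ctr. The difference of -1.03 ± 0.30 log2 units missed the threshold (limma adjusted p = 0.986), and replicate 3 lay inside the control range. The summed germ cell signal of those arrays was 12798, 8971, 16437 and 9475, highest in the same replicate, and 9392 to 16304 in XX Ctr. Its part in the Dmrt1 values was not tested.

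Loss of Ctnnb1 in gonads already lacking Sox9 can be set side by side in XX and XY, since these comparisons share no arrays. XX DKO against XX Sox9KO had 3 members higher and 1 lower (7.36% and 6.16% of all genes). The differences were 1.27 ± 0.15 for Vnn1, 1.18 ± 0.14 for Cst9, 1.12 ± 0.30 for Dmrt1 and -1.31 ± 0.13 log2 units for Aard. Dmrt1 lost its call without XX Sox9KO replicate 4 (0.90, limma adjusted p = 0.0632). Of 7 germ cell genes 3 were higher and 0 lower in that comparison. Their summed signals of 17114 to 23053 in XX DKO and 8971 to 16437 in XX Sox9KO did not overlap, and their part in the Dmrt1 difference was not tested. The matching XY differences of the 4 members were 1.52, 1.94, 0.10 and -0.80. In the test of XY against XX limma called 0 of 7 members, and 0.943% of all genes (111 genes, with 1761 at an unadjusted p below 0.05). Cst9 came nearest, with an excess in XY of 0.76 ± 0.21 (limma adjusted p = 0.0764). It was called without XY Sox9KO replicate 3 or XY DKO replicate 3 (0.88 and 0.89, limma adjusted p = 0.0275 and 0.0420). For Vnn1 the XY minus XX value was 0.25 ± 0.22, for Aard 0.51 ± 0.19 and for Dmrt1 -1.02 ± 0.44 (limma adjusted p = 0.599, 0.190 and 0.264).

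**Figure D4:**
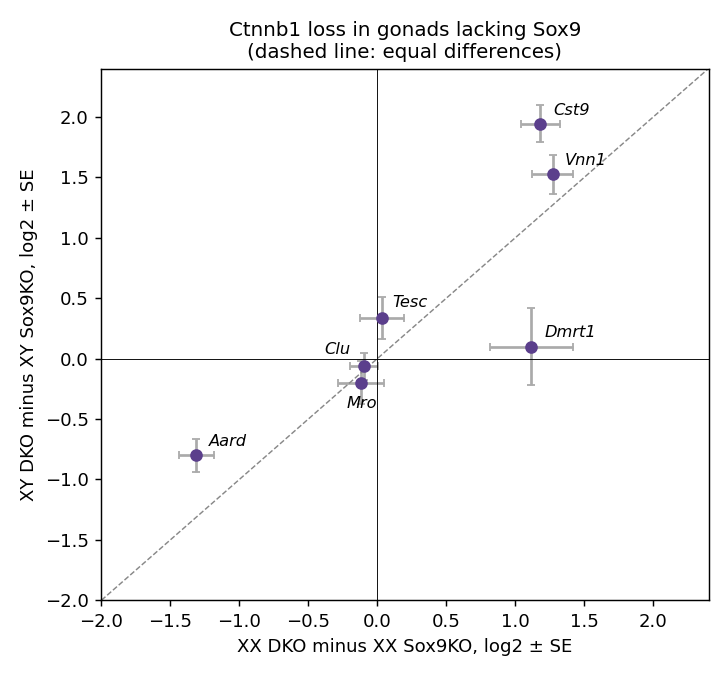
Difference of log2(signal + 16) on loss of Ctnnb1 in gonads without Sox9, in XX (x axis, XX DKO against XX Sox9KO) and XY gonads (y axis, XY DKO against XY Sox9KO), with SE bars and a line of equal differences. Vnn1 and Cst9 lie in the upper right, Aard lies in the lower left at -1.31 and -0.80, and Tesc, Mro and Clu lie near 0 on the x axis.

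Where Sox9 was not knocked out, the effect of Ctnnb1 loss did differ between XY and XX gonads for 3 members. Sox9 signal averaged 119.8 in XX Ctr and 108.1 in XX Ctnnb1KO. It averaged 929.1 in XY Ctr and 747.1 in XY Ctnnb1KO, so XX and XY also differed in Sox9 level here. Vnn1 and Cst9 had lower values in XY, by -1.36 ± 0.21 and -1.33 ± 0.20 log2 units, and Aard a higher one, by 0.96 ± 0.18 (limma adjusted p = 5.67e-05, 4.83e-05 and 0.000870). Over all genes limma called 1.75% lower and 2.45% higher. With single arrays left out, XX Ctnnb1KO replicate 4 included, the values ran from -1.47 to -1.23 for Vnn1, -1.38 to -1.23 for Cst9 and 0.87 to 1.04 for Aard, and limma called all 3 each time. This test was chosen after the values had been seen.

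Between XY DKO and XX DKO 2 members passed the test. Cst9 was higher in XY DKO by 0.54 ± 0.15 log2 units, with 531 to 833 against 348 to 509 (limma adjusted p = 0.0342). Aard was higher by 0.46 ± 0.14, with 666 to 784 against 418 to 647 (limma adjusted p = 0.0481). These were 2 of the 7 members, where limma called 3.45% of all genes higher. Both calls were lost in a fit on the arrays of these groups alone (limma adjusted p = 0.141 and 0.142) and without XX DKO replicate 3. With single arrays left out in turn, Cst9 lost its call in 3 of 7 fits and Aard in 6 of 7. Aard also lost it with a pseudocount of 64, no filter or eBayes without trend (limma adjusted p = 0.0531, 0.0650 and 0.0582). Leaving out any array of these groups but XX DKO replicate 3 left 1 member called, which was Mro, as lower, without XY DKO replicate 4. Vnn1, Tesc, Dmrt1, Clu and Mro differed by 0.31, 0.26, 0.34, 0.21 and -0.44, with limma adjusted p-values of 0.140 or more.

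Against the control ovary XY DKO had 3 members higher and 1 lower (14.6% and 11.7% of all genes), with Cst9 at 1.86 ± 0.15, Vnn1 at 1.62 ± 0.16 and Clu at 0.34 ± 0.11 log2 units above it. Clu (limma adjusted p = 0.0246) lost its call without XX Ctr replicate 1 or 3, without XY DKO replicate 2 or 3, and in a fit on the arrays of these groups alone.

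Ranked by mean log2 signal over the 8 groups, the members fell into different orders. XY Ctr stood first for Cst9, Aard, Tesc, Dmrt1 and Clu, and the step to its neighbour XY Ctnnb1KO passed the test in none of them, although the arrays of Aard and Tesc did not overlap. For Cst9 the order went on with XY DKO, XX DKO, XX Ctnnb1KO, XX Sox9KO, XX Ctr and XY Sox9KO. The steps down from XY Ctnnb1KO, XY DKO and XX Ctnnb1KO passed the test, and the other steps did not. For Aard the lowest 3 places were XY DKO, XX DKO and XX Ctnnb1KO, below XX Sox9KO, XX Ctr and XY Sox9KO. The steps down from XY Ctnnb1KO, XY Sox9KO and XY DKO passed the test. For both Cst9 and Aard the step from XY DKO to XX DKO was close to the threshold (limma adjusted p = 0.0342 and 0.0481). Each lost its call in some of the alternative fits. For Vnn1 the upper 5 groups, XY DKO, XY Ctr, XY Ctnnb1KO, XX DKO and XX Ctnnb1KO, had no step between neighbours that passed. The next step, from XX Ctnnb1KO down to XY Sox9KO, was 1.19 ± 0.15 log2 units (limma adjusted p = 4.67e-07). For Tesc, Mro and Clu XY Ctr and XY Ctnnb1KO stood above the other 6 groups, with 1 step that passed, and for Dmrt1 no step passed. Without replicate 4 of XX Ctnnb1KO the order changed for Aard and Dmrt1 and for no other member. The places of the steps that passed changed for Dmrt1 alone. The Vnn1 step was then 1.16 ± 0.16 (limma adjusted p = 5.19e-06), and the Cst9 step from XX Ctnnb1KO to XX Sox9KO 1.08 ± 0.16 (limma adjusted p = 9.45e-06). For Aard XX Ctnnb1KO moved above XX DKO, and the step down to it from XY DKO was 0.44 ± 0.14 (limma adjusted p = 0.0427). For Dmrt1 XX Ctnnb1KO moved to the place above XX Sox9KO, and that step passed, at 1.01 ± 0.32 (limma adjusted p = 0.0365). With all arrays these groups were not neighbours, and XX Sox9KO minus XX Ctnnb1KO was called too, at -1.18 ± 0.30 (limma adjusted p = 0.00626).

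A list of 19 other Sertoli cell genes was also chosen with earlier results of these data known. Of these, 16 were tested, and all 16 were lower in XY Sox9KO than in XY Ctr, where limma called 16% of all genes lower. In XY DKO 12 were higher than in XY Sox9KO and 2 were lower, with a median difference of 1.38 against -0.02 over all genes. Limma called 11.1% of all genes higher there and 10.8% lower. The steroid enzyme gene Hsd17b3, the hedgehog ligand gene Dhh, the synaptic organiser gene Cbln4 and the prostaglandin synthase gene Ptgds rose by 5.51 ± 0.27, 3.13 ± 0.18, 2.68 ± 0.20 and 2.24 ± 0.24 log2 units. Col9a3, a collagen gene, and Shbg, encoding a sex steroid carrier, fell by 1.03 ± 0.24 and 0.86 ± 0.25. Amh, encoding anti-Müllerian hormone, and Fgf9, a growth factor gene, differed by 0.17 ± 0.41 and -0.01 ± 0.20 and did not pass. Amh signal was 16.3 ± 8.60 in XY DKO (SD, n = 3), far below the array medians, against 215 ± 13.1 in XY Ctr (SD, n = 4). Against XY Ctr, 13 of the 16 were lower in XY DKO and 0 were higher, where limma called 7.61% of all genes lower.

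Genes of some other cell types moved between XY Sox9KO and XY DKO as well, where limma called 11.1% of all genes higher and 10.8% lower. Of 10 pregranulosa genes 9 fell and 1, Rspo1, rose, with summed signals of 14963 to 16101 in XY Sox9KO and 6508 to 7766 in XY DKO. Of 6 fetal Leydig genes listed 4 were tested and all 4 rose, with sums of 1948 to 2426 and then 12099 to 15674. Of 8 macrophage genes 7 rose, with sums of 3516 to 4341 and then 6114 to 8303. In XX gonads 6 of those 8 were higher in XX Ctnnb1KO than in XX Ctr, with sums of 4535 to 6839.5 and 2781 to 4485. Over all genes limma called 4.81% higher in that comparison. Without replicate 4 of XX Ctnnb1KO limma called 6 of the 8 higher there too, and the range of sums was 4535 to 6839.5. Vnn1 and Cst9 rose in the same comparisons. In XY Ctr, where Vnn1 read 1584 to 1903, the macrophage sum was 3057 to 4060.0. Of 7 germ cell genes 2, Dppa3 and Pou5f1, rose and 0 fell in XY DKO against XY Sox9KO. Of 3 mesonephric and rete genes tested Lhx1 rose by 2.56 ± 0.32, and Pax8 and Emx2 fell by 2.17 ± 0.27 and 0.76 ± 0.15. Of 6 endothelial genes 1, Emcn, fell. The germ cell and endothelial counts are small beside the shares over all genes and are not read as movement. The part of these cell types in the levels of the 7 members was not tested.

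The genes whose log2 signal over the 31 arrays was most like that of a member differed from member to member. Nearest to Vnn1 were Akr1cl and the thrombomodulin gene Thbd (Pearson r = 0.97 and 0.95). They rose in XY DKO against XY Sox9KO by 1.23 ± 0.10 and 2.44 ± 0.14 log2 units, and were not called against XY Ctr (limma adjusted p = 0.420 and 0.581). Nearest to Cst9 were Dhh and the cadherin gene Fat3 (r = 0.98 and 0.98), which were still lower than in XY Ctr, with differences of -2.33 ± 0.18 and -2.32 ± 0.28. Aard was nearest to Chp2 and Spata21 (r = 0.96 and 0.96), of which Spata21 fell in XY DKO against XY Sox9KO by 1.10 ± 0.18 and Chp2 differed by -0.26 ± 0.17. Tesc was nearest to Ankrd63 and to the lanosterol synthase gene Lss (r = 0.98 and 0.97), of which Lss rose by 0.51 ± 0.09. Mro was nearest to Plppr4 and Arhgef4 (r = 0.92 and 0.90), and Clu to Ldb2 and Gpc3 (r = 0.95 and 0.92). For Dmrt1 they were Glis3 and the cyclin gene Ccnb2 (r = 0.86 and 0.85). Between members r ran from 0.09, for Aard with Vnn1, to 0.94, for Cst9 with Tesc. The arrays fall into 8 groups, so these values carry the group differences. The genes were picked by r over these same arrays, so their likeness to a member in single comparisons is no independent support.

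For Vnn1, Tesc and Clu the array has further probe sets. A second one for Vnn1 differed by 1.47 log2 units between XY DKO and XY Sox9KO, against 1.52 for the one used, and by 0.18 from XY Ctr. For Tesc the second differed by 0.35 between XY DKO and XY Sox9KO, against 0.33. That second probe set read only 5.9 to 16.9 in XY Sox9KO and 5.4 to 52 in XY DKO. Both ranges lie far below the array medians, so it is a weak check there. Clu has 3 more, which differed by -1.31 to -0.76 between XY Sox9KO and XY Ctr, against -0.64 for the one used, and by 0.02 to 0.13 between XY DKO and XY Sox9KO. From XY Ctr to XY DKO they differed by -1.29 to -0.69. Cst9, Aard, Mro and Dmrt1 have 1 probe set each, so their values have no such check.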

How the data were processed

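RNA from 31 pairs of gonads was measured on 1-colour arrays, each pair on its own array. The deposited signals are linear intensities that the authors obtained with MAS5, according to the submitters' processing notes, with its settings unknown here. Of 45101 probe sets 64 controls were left out, and 34945 with a single symbol named 18193 genes. Adding 16 before log2 makes fold changes of dim genes too small. Genes above their own array's median on at least 3 arrays were tested.

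All arrays entered 1 limma fit (version 3.58.1, R 4.3.3) of 8 group means, with trended eBayes and 23 residual degrees of freedom. P-values were adjusted by Benjamini and Hochberg's method across 11777 genes and called under 0.05. The script was tested on simulated data. Nothing in the labels pairs arrays of the same number. The files name no genome build, so only the RefSeq stretches carry coordinates.

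Named genes were the members, Sox9, Ctnnb1, Xist, Eif2s3y, up to 4 genes per list by adjusted p in XY DKO against XY Sox9KO with those that did not pass, and the 2 genes most like each member. Col9a3, Shbg and Rspo1 were named after their values were seen. Members and lists were chosen with earlier results of these data known. Alternatives were quantile normalization, other pseudocounts, no filter, other probe sets, only the arrays compared, a replicate block, eBayes without trend and single arrays left out. XX DKO against XX Sox9KO and the test of XY against XX without Sox9 knockout were run under them after the values had been seen.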

Additional observations from a re-analysis of the deposited data

Results flagged for a closer look

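Single arrays stood apart from the other 3 of their group in 4 of 49 checks of a member in a group of 4 arrays, and chance gives about 1 in 20. The gap to the nearest array was 0.955 of the group's range for Cst9 in XX Ctnnb1KO, which read 362, 477, 367 and 364 with replicate 2 highest. The gap was 0.952 for Aard in XX Ctr, with signals of 1334, 1185, 1331 and 1339 and replicate 2 lowest. For Dmrt1 it was 0.905 in XY Ctr, with 706, 867, 710.1 and 695 and replicate 2 highest, and 0.916 in XY Ctnnb1KO, with 458, 784, 784 and 749.8 and replicate 1 lowest.

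Effects of Ctnnb1 loss differed between backgrounds for 3 members, by limma's test of the difference. In XY gonads the effect without Sox9 exceeded that with Sox9 by 2.10 log2 units for Cst9 and 1.59 for Vnn1. Where Sox9 was not knocked out, the effect in XY minus that in XX gonads was -1.33 for Cst9, -1.36 for Vnn1 and 0.96 for Aard.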

How the results depend on the processing

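Of 1918 differences of single members under alternative settings, 1881 kept their side of the threshold, 21 lost a call and 16 gained one. The sign changed in 58 values of 29 differences, none of them called before or after, with sizes of at most 0.43 before and 0.23 after on the log2 scale. In XY DKO against XX DKO the count of 2 members became 1 with a pseudocount of 64, no filter, a replicate block (limma adjusted p = 0.0572) or eBayes without trend, where Aard lost its call, 0 with only the arrays compared, and 0 to 1 with single arrays left out. Leaving out single arrays gave 0 to 1 for XY Sox9KO against XX Ctr and 0 to 1 for Ctnnb1 loss without Sox9 in XY against XX. On linear signal the shares regained were 7.98% for Cst9, -10.3% for Aard, 1.83% for Tesc and 129% for Vnn1. That of Aard on the log2 scale ran from -38.8% to -29.7% with single arrays left out, that of Mro from -35.5% to -4.87% and that of Clu from -23.8% to 2.06%. With its second probe set the share of Clu was 9.40%. Counts over all genes moved by over 1.5 times for XY DKO against XY Sox9KO (2572, lowest 1705), against XX DKO (615, lowest 179) and against XX Ctr (3088, lowest 2048). They also did for XY Sox9KO against XX Ctr (74, range 7 to 228), XY Ctnnb1KO against XY Ctr (8, lowest 5), XX Sox9KO against XX Ctr (0, highest 1) and Ctnnb1 loss without Sox9 in XY against XX (111, range 53 to 168). The causes were not tested. In no comparison was every correlation between same-numbered arrays over 0.1, so the numbers were not taken as pairs. The correlations ran from -0.30 to -0.14 for XY DKO with XY Sox9KO (0 of 3 arrays closest to its own number). They ran from 0.06 to 0.22 for XY DKO with XY Ctr (1 of 3) and 0.05 to 0.29 for XY Sox9KO with XX Ctr (2 of 4). Single values went further elsewhere, to 0.54 for replicate 2 of XX DKO with XX Ctnnb1KO. The lowest was -0.45, for replicate 2 of XX Ctnnb1KO with XX Ctr. The replicate block moved no other count of members by over 1.5 times. Signals near or below the array medians limit what can be seen of Tesc without Sox9, and of Cst9 in XX Sox9KO and XY Sox9KO.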
